A study of Mus musculus with 9 samples.

Results

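Gene expression in blood progenitor cultures on a feeder layer that presents the Notch ligand Delta-like 1 was compared with that on a control feeder, over all genes measured. The comparison used 6 of the 9 arrays of the study, 3 from the OP9-DL1 feeder and 3 from the OP9-GFP feeder, chosen by their sample titles. All cultures were started with LSK cells, bone marrow cells that lack lineage markers and carry Sca-1 and c-Kit (Lineage- Sca-1+ c-Kit+), a fraction rich in blood stem and early progenitor cells, sorted from wild-type C57/Bl6 mice. OP9 is a mouse bone marrow stromal cell line that supports blood cell growth; OP9-GFP is the control line, and OP9-DL1 carries Delta-like 1 in addition. The cells were kept on either feeder for 3 days without an inhibitor, and those that did not adhere were collected. The other 3 arrays were from OP9-DL1 cultures with 1 µM Compound E, an inhibitor of γ-secretase. They were not compared here, but helped to estimate the spread between arrays, to choose probe sets and to set background and brightness levels.

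A Notch receptor is cut by γ-secretase once a ligand on a neighbouring cell binds it, and the freed inner part enters the nucleus, where it joins the DNA-binding protein RBPJ and switches on target genes. In blood development this signal is best known for starting the T cell programme and for holding back other fates. Contact with stromal cells that present Delta-like 1 is a standard way to expose progenitors to it in culture.

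RNA of these cultures, 25 ng per condition, was amplified, biotin-labelled and hybridised to single-colour oligonucleotide arrays. The deposited values are on a log2 scale, and levels and differences below are in log2 units unless a fold is given. Each of 18193 genes was represented by 1 probe set, and a gene was called when its limma adjusted p was below 0.05. Array medians ran from 4.88 to 4.94. Across genes, which are not independent replicates, arrays of the same feeder correlated with r of 0.9970 to 0.9977, and arrays of different feeders with r of 0.9833 to 0.9846. The number of arrays limits the precision, with a median SE of a difference of 0.10 and a median SD of 0.09 within each group. For 3204 genes (17.6%) a group held exactly equal values on 2 or more arrays, which lowers their spread. Whether replicates were separate cultures is not in the labels, so the p-values rest on the spread between these arrays, which may be technical. Values up to 3.64, the highest of 27 bacterial control probe sets over the 9 arrays, are called background. Over the 6 arrays compared the highest was 3.32, so the level comes from a Compound E array, and counts at background depend on it.

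Kit, the 1 defining LSK marker among the genes tested, and the other stem or progenitor markers tested were above background on both feeders. Kit read 8.81, 8.91 and 9.11 on OP9-GFP and 10.25, 10.36 and 10.05 on OP9-DL1, whereas Cd34, at 11.33 to 11.38 and 10.97 to 11.02, was slightly lower on OP9-DL1. Of 9 stem or progenitor markers, Kit included, 6 rose and 3 fell. Of all genes tested 15.9% were called higher and 16.7% lower, and the marker counts are to be read beside these shares. Markers of stromal feeder cells were read too, and whether their RNA came from feeder cells was not tested. Of these 15 markers 11 rose, with a mean over the list of 8.22 to 8.25 on the OP9-GFP arrays and 8.88 to 8.94 on the OP9-DL1 arrays. Lum and Dcn, matrix genes on that list, were at background throughout. Among fat cell markers 4 of 6 rose (2 with arrays centred on their medians), with list means of 6.53 to 6.73 and 7.23 to 7.26, and among endothelial markers 6 of 8, with means of 5.20 to 5.29 and 5.84 to 6.06. Of 8 macrophage markers 7 fell, with list means of 9.08 to 9.10 and 6.85 to 6.98, and all 6 megakaryocyte markers rose, from 9.09 to 9.15 to 10.79 to 10.83. Neutrophil markers moved both ways, with 4 of 7 higher and 3 lower. Of 9 T cell markers 4 rose, but Cd3e, 1 of the 4, was at background on all 6 arrays, as were Cd4 and Cd8b1. Natural killer markers had 1 of 7 higher, Nkg7, and 1 lower, Klrk1 (14.3% each, near the shares of all genes). Ncr1, Eomes, Tbx21 and Il2rb were at background on both feeders. In such bulk RNA, fewer cells of a type and less RNA per cell cannot be told apart. The part of any of these cell types in the results below was not tested.

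The ligand feeder changed genes in both directions, and the changes were mostly small. At an adjusted p below 0.05, 2888 genes were higher (15.9% of those tested) and 3046 lower (16.7%), or 5934 in all (32.6%). Of these, 748 genes (4.11%) were at least 2-fold higher and 502 (2.76%) at least 2-fold lower. The excess of 2-fold rises was smaller on the log2(value + 32) scale, 429 against 348, and among genes above the median brightness, 404 against 386. Between log2 differences of 0 and 1 lay 2140 of the rises and 2544 of the falls, and between 1 and 2 there were 608 and 393. Above 4 there were 13 rises and 6 falls. The median difference over all genes was -0.02. Counts of called list members below are to be read beside the shares of all genes, 15.9% higher and 16.7% lower.

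The direction of the calls varied with the level of the gene. When genes were ordered by their mean level and split into 4 equal groups, 2-fold changes in the second dimmest group, with means from 3.44 to 6.41, were 7.48% higher and 2.48% lower. In the brightest group, above 9.09, they were 2.18% higher and 3.43% lower. All calls in that group were 21.6% higher and 29.3% lower. In the group below it, with means from 6.41 to 9.09, all calls were 22.6% higher and 27% lower. Lists of bright genes are to be read beside these shares too. In the dimmest group, which lies at background, 1.71% and 1.52% were called. The values of the 3 arrays did not overlap between feeders for 7969 genes (43.8%).

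**Figure D1:**
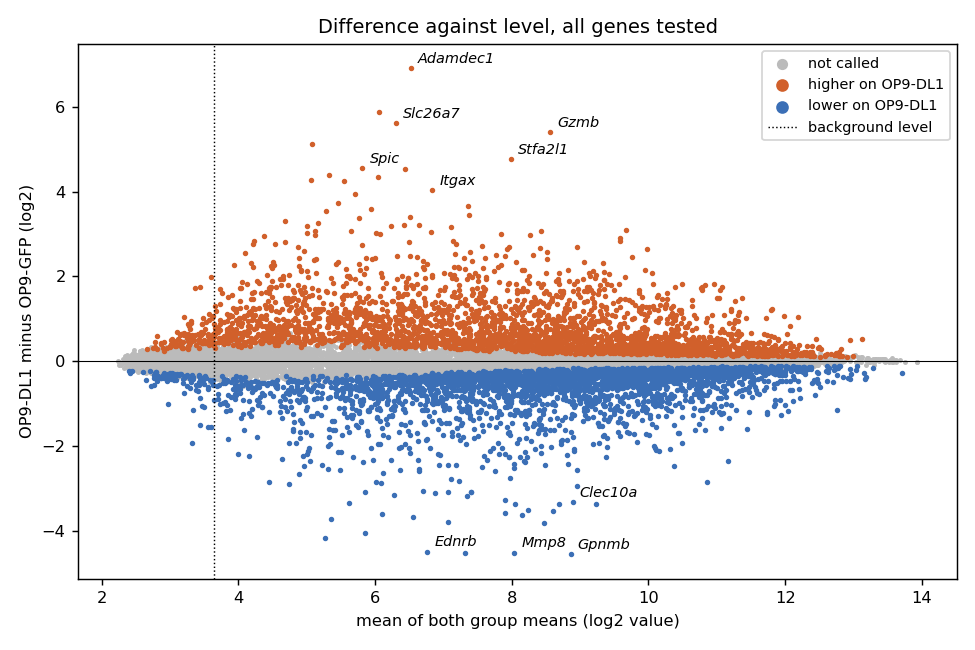
Each point is a gene, with the mean of both group means on the x axis (log2 value) and the OP9-DL1 minus OP9-GFP difference on the y axis (log2); orange points were called higher, blue points lower, grey points neither, and the dotted line is the background level of 3.64. The tallest points above 4 lie at middle levels, with Adamdec1 at 6.91 and Gzmb at 5.40, while Gpnmb at -4.56 and Mmp8 at -4.52 are the lowest of the labelled falls.

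The largest rises included secreted proteins, granule proteases and surface receptors, several of them from background. Adamdec1, a secreted disintegrin-like metalloprotease, read 3.04, 3.06 and 3.10 on OP9-GFP and 10, 9.95 and 9.96 on OP9-DL1. Its difference of 6.91 ± 0.13 (SE, n = 3 per group) was the largest of those ranked. Spic, an Ets-family transcription factor known from iron-handling macrophages of the spleen, went from 3.53, 3.60 and 3.48 to 8.01, 8.10 and 8.16, or 23.5-fold (limma adjusted p = 1.93e-13). A second probe set of Spic differed by 3.95. Dnase1l3, a secreted nuclease that clears DNA from dying cells, went from 3.21, 3.44 and 3.62 to 7.76, 7.68 and 7.56. In all 3 genes the OP9-GFP arrays were at background, but Spic and Dnase1l3 had values there above 3.32, the highest control value on the 6 arrays compared. The choice of these genes required that the groups not overlap.

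Granzymes and chymases, proteases stored in the granules of cytotoxic and mast cells, came next. Gzmb read 6.04, 5.96 and 5.57 on OP9-GFP and 11.26, 11.30 and 11.20 on OP9-DL1, a 42.2-fold rise. Mcpt1, a mast cell chymase, read 2.58, 2.45 and 2.51 against 7.79, 7.54 and 7.61 (35.0-fold). Gzma rose by 3.31 from background and Gzme by 3.94. Gzmb was above background in every OP9-GFP array, whereas Mcpt1 and Gzma were at background in all 3.

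Among surface molecules, Ccr7, the chemokine receptor that guides cells to lymph nodes, rose from 3.26, 3.26 and 2.84 to 7.53, 7.53 and 7.5. Itgax, the CD11c integrin chain of dendritic cells, rose from 4.97, 4.74 and 4.75 to 8.73, 8.87 and 8.96 (16.4-fold, limma adjusted p = 2.14e-13). Cd22, an inhibitory sialic acid receptor of B cells, rose by 3.60 ± 0.14 (SE) from 4.11, 4.25 and 4.08 to 7.59, 7.94 and 7.71. St8sia6, a sialyltransferase, rose by 3.38. The rule that chose these genes required that the feeders not overlap. Itgax and Ccr7 also stand among 8 dendritic cell markers, of which 3 rose and 3 fell. The other rise was that of Zbtb46, by 1.64. Flt3 fell by 1.51, Siglech by 1.03 and Cd209a, at background on both feeders, by 0.41. Of 9 B cell markers, 4 of them at background on both feeders, 1 was higher, Ebf1, and 1 lower, Cd79b (11.1% each).

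Also in this group was Il6, the secreted inflammatory cytokine, which rose from 4.89, 4.80 and 4.72 to 8.23, 8.30 and 8.09. Orm1, an acute-phase plasma protein, rose by 3.65 ± 0.13 (SE), and Stfa2l1, a cysteine protease inhibitor of the stefin family, by 4.76 ± 0.17. Tnfrsf11b, which encodes osteoprotegerin, the decoy receptor for the bone cytokine RANKL, rose from 3.37, 3.30 and 4.09 to 7.26, 7.51 and 7.20. Esm1, an endothelial proteoglycan, rose by 3.54, and Col8a1, a collagen chain, by 4.53. Col8a1, Tnfrsf11b and Il6 are genes that stromal cells can express, and the feeder markers rose beside them by a median of 0.61.

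Other entries among the 25 largest rises were the T cell receptor segments Trbv1 (5.88) and Trbv13-2 (3.46), the transporters Slc26a7 (5.61), Slc45a3 (3.26) and Abcg3 (3.22), and Chodl (4.35), Ptchd4 (4.28) and Plxdc2 (3.22). Segments of the T cell receptor are near copies of one another, so a probe set can read more than 1 of them. In 9 of the 25 the OP9-GFP arrays were all at background. On the log2(value + 32) scale, which damps dim values, 14 of the 25 shrank by over 1.5 times, to between 1.5 and 4.78 over the 25. With probe sets averaged, Trbv1 stood at 2.97, Slc26a7 at 3.38, Col8a1 at 2.09, Ptchd4 at 2.26 and Dnase1l3 at 2.45. All 25 were still called on both scales.

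**Figure D2:**
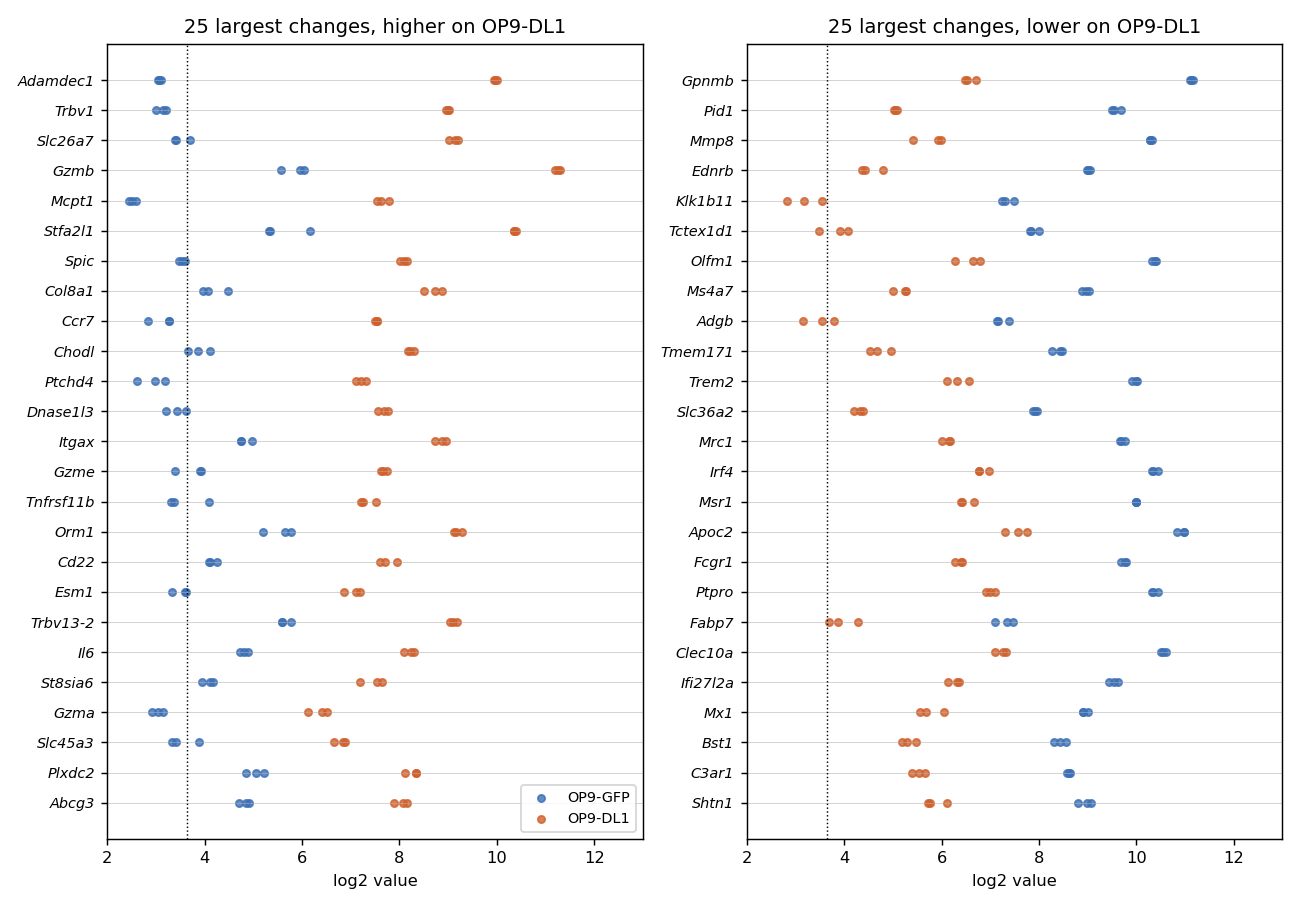
Each row is a gene and each point an array, with the deposited log2 value on the x axis, OP9-GFP in blue and OP9-DL1 in orange; the left panel holds the 25 largest rises and the right panel the 25 largest falls, and the dotted line is the background level of 3.64. The groups do not overlap in any row, as the choice of rows required, and 9 of the 25 rises start with all OP9-GFP arrays at background, against 1 of the falls, Klk1b11, that ends there.

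The largest falls included several receptors known from macrophages. Gpnmb, a lysosome-associated membrane glycoprotein of macrophages and pigment cells, read 11.17, 11.11 and 11.13 on OP9-GFP and 6.49, 6.53 and 6.71 on OP9-DL1. That is a 23.6-fold fall (limma adjusted p = 1.97e-16), and another Gpnmb probe set differed by -5.21. Trem2, a lipid-sensing receptor of macrophages and microglia, went from 10.01, 9.99 and 9.91 to 6.32, 6.11 and 6.56. Its other probe set differed by 0.06, and the mean of both by -1.79. Msr1, a scavenger receptor, read 9.99 on each OP9-GFP array and 6.42, 6.39 and 6.66 on OP9-DL1, and its 3 other probe sets differed by -2.34 to -3.12. Mrc1, the mannose receptor, fell by 3.59, Fcgr1, the high-affinity receptor for immunoglobulin G, by 3.38, and Ms4a7, a membrane protein of macrophages, by 3.79, or by 2.14 with probe sets averaged.

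Irf4, a transcription factor of lymphoid and some myeloid cells, read 10.35, 10.44 and 10.32 on OP9-GFP and 6.77, 6.77 and 6.98 on OP9-DL1 (-3.53 ± 0.07, SE). A second Irf4 probe set differed by -0.25 and the mean of both by -1.89, still called. Mmp8, the neutrophil collagenase, went from 10.33, 10.28 and 10.28 to 5.98, 5.42 and 5.93. Bst1, an ectoenzyme of the myeloid surface, went from 8.55, 8.44 and 8.31 to 5.29, 5.18 and 5.47. Clec10a, a galactose-binding lectin of dendritic cells and macrophages, fell by 3.32, C3ar1, the receptor for the complement fragment C3a, by 3.09, and Ptpro, a receptor tyrosine phosphatase, by 3.37.

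Lipid and amino acid carriers among the falls were Apoc2, the cofactor of lipoprotein lipase (-3.38), Fabp7, a fatty acid binding protein (-3.35), and Slc36a2, an amino acid transporter (-3.61). The interferon-induced genes Mx1 (-3.18) and Ifi27l2a (-3.27) were also in this group. Ednrb, an endothelin receptor, fell by 4.49 on its brightest probe set and by 2.02 with probe sets averaged, and Pid1 by 4.52 and 1.85 in the same way. Klk1b11, a kallikrein, ended at background with 3.18, 3.55 and 2.83. The rest were Tctex1d1 (-4.05), Olfm1 (-3.81), Adgb (-3.73), Tmem171 (-3.67) and Shtn1 (-3.08). On the log2(value + 32) scale 5 of the 25 falls shrank by over 1.5 times: Klk1b11 to -2.24, Tctex1d1 to -2.53, Adgb to -2.06, Slc36a2 to -2.40 and Fabp7 to -2.00.

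Different probe sets of a gene mostly moved together. Of the 748 genes at least 2-fold higher, 329 had another probe set above background. In 313 of these (95.1%) all others moved the same way, and in 207 (62.9%) another was also 2-fold higher. For the 502 lower genes the counts were 223 of 229 (97.4%) and 159 (69.4%). A total of 91 genes (0.5% of those tested) rose from background on all 3 OP9-GFP arrays to above it on all 3 OP9-DL1 arrays, 25 of them by at least 4-fold. In the other direction 33 genes (0.181%) fell to background, 4 of them by at least 4-fold.

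Within the Notch pathway, targets, 1 receptor and 1 ligand rose, and the machinery that readies the receptor was lower or not called. Dll1 itself read 3.36, 3.21 and 3.18 on OP9-GFP and 3.33, 3.47 and 3.08 on OP9-DL1, at background throughout, and whether its probe set covers the sequence carried by the feeder is not known here. Dll3 and Dll4 did not pass the test either and were at or near background. Jag1, a ligand of the other Notch ligand family, was the exception among 5 ligands, rising from 8.22, 8.28 and 8.23 to 10.24, 10.17 and 10.19 (3.88-fold). Jag2 differed by 0.10 and was not called. The Jag1 values did not overlap between feeders, as in 43.8% of all genes tested.

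Of the 4 receptors, Notch3, itself a Notch target, rose from 6.39, 6.26 and 5.96 to 9.05, 8.85 and 8.83. Notch2 read 12.36, 12.36 and 12.41 against 12.16, 12.10 and 12.13, and Notch1 9.49, 9.57 and 9.49 against 9.27, 9.20 and 9.25. These falls of 0.25 and 0.28 lost their calls when probe sets were averaged (limma adjusted p = 0.128 and 0.0563). Notch4 was not called.

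Receptor processing and glycosylation genes had 7 of 13 lower and none higher, with a median of -0.18. Lfng, the fringe enzyme that adds sugars to Notch and so tunes which ligands it answers, fell from 9.63, 9.48 and 9.54 to 8.18, 8.23 and 8.17. The other falls were small: Furin, which makes the first cut in the receptor, by 0.46, Aph1b by 0.44, Aph1a by 0.37 and Ncstn by 0.31, the last 3 being γ-secretase subunits, Poglut1, a glucosyltransferase, by 0.27, and Adam17, a sheddase, by 0.18. Without OP9-GFP replicate 3 Aph1b was not called (limma adjusted p = 0.0509), nor was Poglut1 without OP9-GFP replicate 1 (0.0613), and Ncstn lost its call with probe sets averaged (0.31). Adam10, the main sheddase of ligand-bound Notch, differed by 0.02, Psen2 by 0.01, Mfng by 0.20, Rfng by -0.11, Pofut1 by 0.10 and Psenen by -0.16, none of them called.

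The nuclear complex and its regulators differed little, with 1 of 13 higher (7.69%), 2 lower (15.4%) and a median of 0.03. Of all genes 15.9% were higher and 16.7% lower. Rbpj read 10.29, 10.27 and 10.35 against 10.15, 10.18 and 10.04. Its fall of 0.18 was not called with probe sets averaged (limma adjusted p = 0.615), with no intensity trend (0.0895), or without any 1 of OP9-GFP replicates 1 and 3 and OP9-DL1 replicates 1 and 3 (0.0542 to 0.126). Numb, an inhibitor of Notch, fell by 0.24 and Fbxw7, the ubiquitin ligase that marks the active receptor for breakdown, rose by 0.35. Both calls were lost with probe sets averaged (0.086 and 0.127), and that of Numb also without OP9-GFP replicate 1 (0.0522). The coactivators Maml1 (0.06), Kat2a (0.23), Kat2b (0.07) and Ep300 (-0.11) did not pass the test.

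Of 13 target genes 8 were higher and 1, Notch1, was lower. The repressors split: Hey1 read 4.60, 4.75 and 4.59 against 7.10, 6.98 and 7.16, and Hes1 4.12, 3.99 and 3.70 against 5.74, 6.27 and 6.15. Hes5 read 4.84, 4.85 and 4.97 against 4.97, 4.65 and 5.15, so the groups overlapped, and Hey2 and Heyl were at background on both feeders. Dtx1, a Deltex ubiquitin ligase, rose from 3.29, 3.13 and 2.98 to 4.30, 4.59 and 5.18, with its OP9-DL1 values spread more widely than its OP9-GFP values. Myc, the growth regulator, rose from 8.31, 8.25 and 8.15 to 9.20, 9.22 and 9.42. Nrarp, Il2ra and Gata3 also rose. On the log2(value + 32) scale the median over the 13 was 0.61 instead of 1.56.

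Transcription factors of blood cells changed in both directions. Of 100 measured, 39 were higher and 31 lower, against 15.9% and 16.7% of all genes, with a median of 0.06, and 15 rose and 5 fell at least 2-fold. Among all genes with means from 6.41 to 9.09, the range that holds the list mean, 22.6% were higher and 27% lower. Gata1, which drives red cell, megakaryocyte and mast cell genes, read 7.09, 7.09 and 7.11 on OP9-GFP and 9.28, 9.18 and 9.28 on OP9-DL1. Gata2, of stem and mast cells, read 10.07, 10.11 and 9.96 against 11.89, 11.88 and 11.83. Ets1, a lymphoid and endothelial factor, rose from 7.69, 7.66 and 7.77 to 9.72, 9.74 and 9.49.

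The factors that fell with the smallest p beside Irf4 were Mitf, Irf8 and Id3. Mitf, a regulator of mast cells, osteoclasts and melanocytes, read 10.86, 10.88 and 10.91 against 9.29, 9.32 and 9.36. Irf8, which directs monocyte and dendritic cell development, fell from 10.11, 10.02 and 10.11 to 8.58, 8.61 and 8.49. Id3, an inhibitor of E proteins and a target of BMP signalling, fell from 10.59, 10.58 and 10.62 to 9.19, 9.12 and 9.33. These 3 factors were chosen by their small p, and their values did not overlap between feeders, as in 43.8% of all genes tested.

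**Figure D3:**
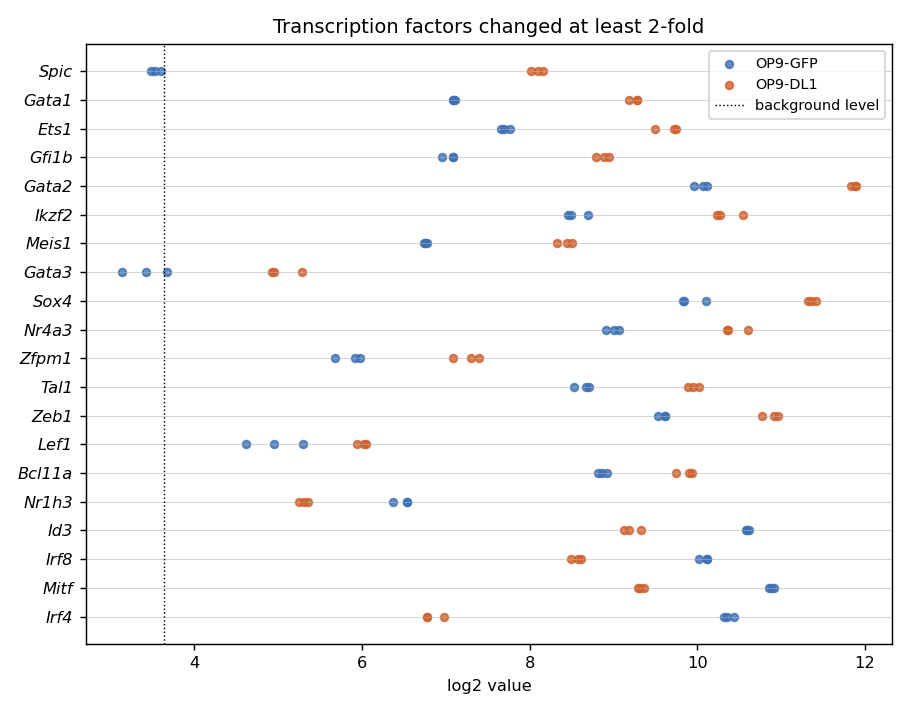
Each row is a transcription factor called and changed at least 2-fold, each point an array, and the x axis the deposited log2 value, with OP9-GFP in blue and OP9-DL1 in orange and the background level dotted. The 15 factors at the top were higher on OP9-DL1, led by Spic, and the 5 at the bottom were lower, with Irf4 lowest.

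Receptors for cytokines were lower more often than higher, with 21 of 43 lower, 13 higher and a median of -0.12. Il6ra, the ligand-binding chain of the interleukin 6 receptor, fell from 10.48, 10.50 and 10.38 to 9.13, 9.21 and 9.18. Csf1r, the receptor that macrophages need to survive, read 12.37, 12.37 and 12.36 against 11.35, 11.19 and 11.38. Il13ra1, a chain of the interleukin 13 receptor, fell by 1.84 and Tnfrsf1b, a TNF receptor, by 1.29.

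Both interleukin 1 receptors went the other way. Il1r1, the signalling receptor, read 8.55, 8.67 and 8.76 against 10.24, 10.44 and 10.29, and Il1r2, the decoy receptor, 5.91, 5.69 and 5.62 against 7.73, 7.67 and 7.75. Il27ra rose by 1.79 and Tgfbr3, the TGF-beta co-receptor betaglycan, by 1.03. The interleukin 1 receptors differed by 1.67 and 1.97.

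Among 44 cytokines and growth factors 17 were higher (38.6%, against 15.9% of all genes) and 8 lower (18.2%, near the 16.7% of all genes). Il1b, an inflammatory cytokine, rose from 7.88, 7.92 and 7.83 to 10.21, 10.18 and 10.26 (limma adjusted p = 1.01e-13). Tnfsf11, which encodes RANKL, the ligand that Tnfrsf11b binds, rose from 4.77, 4.80 and 4.77 to 7.16, 7.44 and 7.06. Il12a, a chain of interleukin 12, rose by 1.71. In the other direction Il18 fell from 9.58, 9.53 and 9.65 to 8.11, 7.81 and 7.99, Tnfsf9 fell by 1.58, Il15 by 0.63 and Osm by 0.45. The count of lower cytokines was 5 without OP9-GFP replicate 2 or 3 or OP9-DL1 replicate 2.

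Chemokine ligands and receptors changed in both directions. Of 32 ligands 11 were higher (34.4%, against 15.9% of all genes) and 6 lower (18.8%, near the 16.7% of all genes). Cxcl5 read 6.39, 6.67 and 6.77 against 9.33, 9.38 and 9.05, and Cxcl1 5.96, 6.21 and 6.06 against 8.57, 8.57 and 8.39. The platelet chemokines Pf4 and Ppbp rose by 1.06 and 1.22. Ccl6 and Ccl9, myeloid chemokines, fell by 1.68 and 1.17, the interferon-induced Cxcl10 by 1.27 and Cxcl16 by 1.12.

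Of 18 chemokine receptors 3 were higher and 4 lower, close to the share of all genes. Ccr1, a receptor for inflammatory chemokines on myeloid cells, fell from 8.69, 8.69 and 8.72 to 6.42, 6.39 and 6.62. Cxcr3 fell by 1.56, Cx3cr1, of patrolling monocytes and tissue macrophages, by 1.24, and Ccr2, of inflammatory monocytes, by 0.77. Besides Ccr7, Cxcr2, the neutrophil receptor for Cxcl1 and Cxcl5, rose by 1.33 from 3.65, 3.81 and 3.75 to 5.05, 4.83 and 5.30, and Ackr3 rose by 0.61. Cxcr4 differed by -0.10 and was not called.

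Feedback inhibitors of kinase and cytokine signalling, genes that their own pathway switches on, were mostly higher, 19 of 25 against 15.9% of all genes, with 2 lower and a median of 0.58. Dusp5 and Dusp6, phosphatases that switch off ERK, read 10.31, 10.31 and 10.26 against 11.74, 11.83 and 11.76, and 9.40, 9.34 and 9.57 against 10.53, 10.51 and 10.47. Dusp1 rose by 0.76 and Errfi1, an inhibitor of the EGF receptor, by 0.89. Dusp7 and Dusp3 fell, by 0.66 and 0.35. The STAT5-linked Socs2 and Cish had the largest differences of the list, 2.06 and 1.65, and were named after their values were seen.

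Granule serine proteases changed in both directions. Of 21, 8 were higher (38.1%, against 15.9% of all genes), all of them by at least 2-fold. The 4 that were lower (19%, near the 16.7% of all genes) did not reach 2-fold. Besides those above, Mcpt4, a connective tissue mast cell chymase, rose from 2.78, 2.84 and 3.07 to 5.73, 5.88 and 5.97. The neutrophil primary granule proteases were bright and slightly lower: Prtn3 read 12.13, 12.12 and 12.16 against 11.64, 11.59 and 11.62, Ctsg 12.78, 12.83 and 12.80 against 12.20, 12.11 and 12.31, and Elane 11.62, 11.69 and 11.57 against 11.13, 11.07 and 11.09. Tpsb2, a mast cell tryptase near background, fell by 0.38, a call lost without any 1 of OP9-GFP replicates 1 and 2 and OP9-DL1 replicates 1, 2 and 3 (limma adjusted p = 0.0626 to 0.143). Of 8 mast cell and basophil markers 4 rose and 1, Tpsb2, fell, with list means of 6.95 to 7.01 on the OP9-GFP arrays and 7.53 on the OP9-DL1 arrays. Cpa3 rose by 1.34 and Ms4a2 by 1.09, while Mcpt8 (0.09) and the chymase Cma1 (-0.09) were not called, and the part of these cells was not tested. Granzymes and chymases are near copies, so probe sets may read more than 1 gene.

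Metalloproteases and their inhibitors had 16 of 28 higher (57.1%) and 5 lower (17.9%), against 15.9% and 16.7% of all genes, with a median of 0.52. The Adamts proteases, which cut matrix proteoglycans, rose together in 7 of the 15 measured and fell in none. Adamts1 read 6.03, 6.17 and 6.08 against 8.70, 8.69 and 8.65, Adamts5 6.70, 6.73 and 6.67 against 8.93, 9.11 and 8.90, and Adamts9 6.11, 6.13 and 6.17 against 8.12, 8.26 and 8.13. By contrast Adam8, a leukocyte sheddase, fell from 9.49, 9.62 and 9.45 to 7.40, 7.39 and 7.25, Mmp19 fell by 1.15 and Adam15 by 1.26. The feeder markers rose beside this list, as given above, and their part was not tested.

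Of 7 stefins and cystatins, inhibitors of cysteine proteases, 2 rose and 2 fell. Stfa3 rose from 4.78, 4.55 and 4.55 to 7.68, 7.81 and 8.01, beside Stfa2l1. Cstb, the ubiquitous stefin B, fell from 12.52, 12.51 and 12.50 to 11.48, 11.44 and 11.52, and Cst3, the secreted cystatin C, by 0.30. Stefin A genes are close copies, and a probe set may read several.

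Integrin chains had 7 of 24 higher and 8 lower. Itga2b and Itgb3, the chains of the platelet fibrinogen receptor, read 8.51, 8.51 and 8.45 against 10.32, 10.27 and 10.34, and 11.18, 11.19 and 11.19 against 12.40, 12.38 and 12.37. Itgb7, of gut-homing leukocytes, fell from 9.79, 9.83 and 9.72 to 8.47, 8.39 and 8.48. Itgb5 fell by 1.59 and Itgb2, the shared chain of the leukocyte integrins and partner of Itgax, by 0.81. Itga6 rose by 0.51 and Itga1 fell by 0.42.

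C-type lectins and related receptors, which bind sugars of microbes and dying cells, fell in 15 of 25 cases, 60% against 16.7% of all genes, with a median of -0.85, or -0.51 on the log2(value + 32) scale. Clec1b, the platelet receptor for podoplanin, was the only one called higher (2 were with quantile normalization), from 9.95, 9.98 and 9.79 to 11.68, 11.64 and 11.66. Clec4a3, an inhibitory receptor of myeloid cells, fell from 11.24, 11.24 and 11.18 to 8.99, 9.17 and 9.15. Clec4d fell by 1.26 from 12.56, 12.55 and 12.59, beside Clec10a and Mrc1. Of the macrophage markers 7 of 8 fell with them.

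Toll-like receptors and their adaptors fell in 16 of 21 cases (76.2%), 12 of them by at least 2-fold, with a median of -1.12. Tlr13, which senses bacterial ribosomal RNA, read 9.42, 9.35 and 9.28 on OP9-GFP and 6.56, 6.67 and 6.57 on OP9-DL1. Tlr2, a sensor of lipoproteins, read 10.43, 10.44 and 10.36 against 8.94, 8.85 and 8.87. Cd14, the endotoxin coreceptor, and Tlr7, a sensor of single-stranded RNA, each fell by 1.68. Among the shared signal relays Irak1 (-0.10), Traf6 (0.03) and Ticam1 (-0.29) were not called, and Myd88 rose by 0.19. The Myd88 call was lost with arrays centred on their medians (limma adjusted p = 0.0577) and without any 1 of OP9-GFP replicates 1 and 2 and OP9-DL1 replicates 1 and 3 (0.0652 to 0.0812). On the log2(value + 32) scale the median was -0.60.

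Complement genes moved both ways, with 5 of 18 higher (27.8%) and 6 lower (33.3%), against 15.9% and 16.7% of all genes. Cfp, properdin, which stabilises the alternative pathway, fell from 11.66, 11.68 and 11.49 to 9.09, 9.10 and 9.23, C5ar1, the receptor for C5a, by 1.94, and C1qb by 2.35. The surface inhibitors Cd55 and Cd59a, which protect cells from complement, rose by 1.97 and 1.25, and Masp1, a protease of the lectin pathway, by 1.15. C1qa was at background on both feeders.

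Enzymes and receptors of the eicosanoid pathway, which makes prostaglandins, thromboxane and leukotrienes, had 12 of 23 higher and 7 lower. Pla2g4a, which frees arachidonic acid, rose by 1.07, Ptgs2, the inducible cyclooxygenase, by 1.03, Alox12, the platelet lipoxygenase, by 1.5, and Ptger3, a prostaglandin E receptor, by 1.16. Hpgd, the enzyme that breaks prostaglandins down, fell from 10.80, 10.85 and 10.68 to 8.84, 8.86 and 8.93. Ptgds, a prostaglandin D synthase, fell by 2.35, Ptger2 by 1.64 and Alox5ap, which serves leukotriene synthesis, by 0.61.

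Lysosomal genes fell almost throughout, in 32 of 36 cases (88.9%, against 16.7% of all genes), and none was higher. The falls were moderate, with a median of -0.56 and 7 of at least 2-fold. Ctsh, an aminopeptidase cathepsin, read 11.31, 11.31 and 11.24 on OP9-GFP and 9.53, 9.55 and 9.67 on OP9-DL1. Ctsb, a major cysteine cathepsin, read 12.58, 12.57 and 12.60 against 11.66, 11.62 and 11.68. Ctsa, protective protein, read 11.39, 11.45 and 11.36 against 10.35, 10.34 and 10.35, and Npc1, the cholesterol exporter, 9.17, 9.14 and 8.97 against 7.64, 7.57 and 7.59. Feeder and blood cells both have lysosomes, macrophages many of them, and the macrophage markers fell by a median of 2.14 beside this list.

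**Figure D4:**
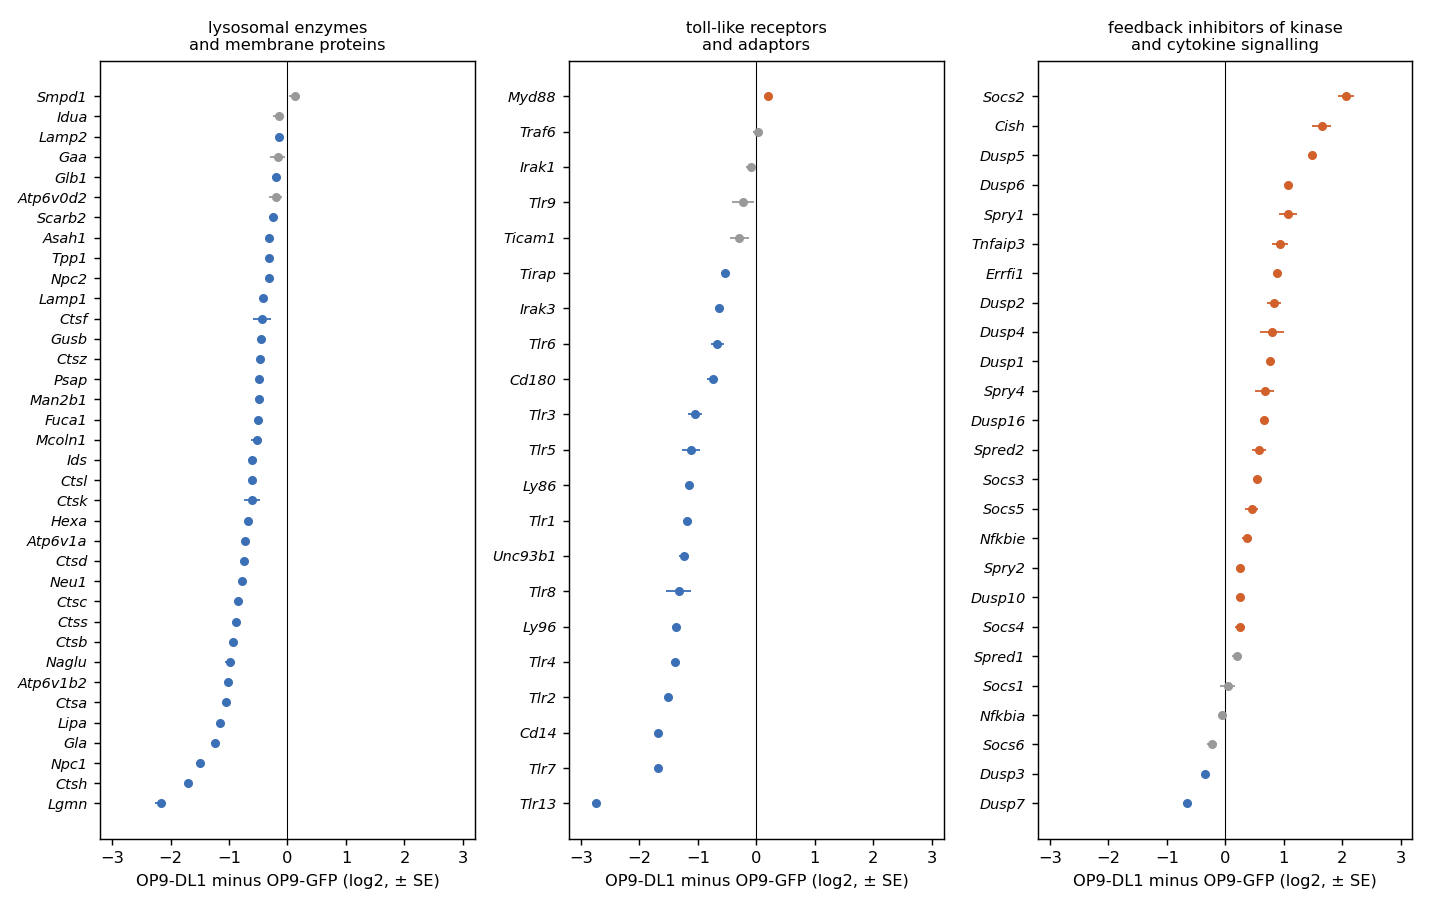
Each row is a gene, the point its OP9-DL1 minus OP9-GFP difference (log2) and the bar its SE from the fit, in orange where called higher, blue where called lower and grey where not called, for 36 lysosomal genes, 21 toll-like receptors and adaptors and 25 feedback inhibitors. Nearly all lysosomal points lie left of 0 down to Lgmn at -2.17, 16 of the toll-like points are blue, and 19 of the feedback inhibitors are orange up to Socs2 at 2.06.

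The promoter windows of lysosomal genes were set beside these falls because many hold the palindrome CACGTG, the E-box letters that MITF and its relatives TFEB, TFE3 and TFEC, among other factors, are known to bind. The letters stood in 12 of 33 windows (36.4%) of the 30 lysosomal genes with a window, against 8.72% of 18109 windows over all genes tested. Windows run from 250 bases before to 50 after the gene start and come from RefSeq, build GRCm38.p6, and the palindrome reads the same on both strands. The stretches below show the letters in capitals, 5′ to 3′ on the strand of the gene, for 5 genes chosen after their values were seen, with 1 to 4 copies each. They are from Lgmn, a cysteine protease (chr12:102439106-102439171, minus strand), Gla, α-galactosidase (chrX:134601164-134601255, minus strand), Ctsa (chr2:164833731-164833813, plus strand), Naglu, which degrades heparan sulfate (chr11:101069991-101070056, plus strand), and Lamp1, the main lysosomal membrane protein (chr8:13159070-13159181, plus strand).
Lgmn: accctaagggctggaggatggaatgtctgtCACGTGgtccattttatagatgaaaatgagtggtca
Gla: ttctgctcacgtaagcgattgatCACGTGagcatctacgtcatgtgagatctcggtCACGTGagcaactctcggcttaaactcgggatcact
Ctsa: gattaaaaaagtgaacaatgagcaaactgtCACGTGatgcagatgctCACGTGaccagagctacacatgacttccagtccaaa
Naglu: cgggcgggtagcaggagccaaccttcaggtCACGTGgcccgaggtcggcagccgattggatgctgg
Lamp1: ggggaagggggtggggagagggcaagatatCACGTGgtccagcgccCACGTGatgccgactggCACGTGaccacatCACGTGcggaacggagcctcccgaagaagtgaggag

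Lgmn differed by -2.17, Gla by -1.24, Ctsa by -1.05, Naglu by -0.98 and Lamp1, with 4 copies, by -0.42. Of 12 with them 11 fell, with a median of -0.66, and of 18 without them 16 fell, with a median of -0.48. Among the factors named, Mitf fell by 1.56, as given above, and Tfec (-0.79), Tfe3 (-0.65) and Tfeb (-0.68), named after their values were seen, were lower too. Myc, which can bind the same letters, rose by 1.05. A match of letters is no measure of binding, and any link between these values was not tested.

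Other motifs were counted in the same windows, on both strands. The RBPJ letters GTGGGAA stood in 6.33% of all windows, 6.51% of those of genes at least 2-fold higher and 6.37% of those at least 2-fold lower. Of the 13 Notch target genes 9 had a window. Among these 9 windows 2 held the letters, those of Hes5 and Hey2, neither of which was called. Hes1, Hey1, Heyl and Myc had no window and were not searched. The GATA letters AGATAA stood in 8.09% of all windows, 10.9% of the higher set and 6.95% of the lower set. The interferon response letters AANNGAAA stood in 19.8%, 17.9% and 25.7%, and the PU.1 letters GAGGAAG in 13.5%, 15.4% and 16.8%. CACGTG stood in 5.98% of the higher and 8.88% of the lower set. The absence of a match says only that the letters are not in this window.

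Genes that present antigen on MHC class I were lower in 9 of 14 cases, with 1 higher and a median of -0.17. H2-M3, a nonclassical molecule for bacterial peptides, fell from 8.04, 8.13 and 8.13 to 7.12, 7.05 and 7.07, and Nlrc5, the factor that drives these genes, by 0.72. Cd1d1, which presents lipids, rose by 0.82. With probe sets averaged 5 were lower. Of 30 proteasome subunits 11 were lower (36.7%, against 29.3% of the brightest group of genes) and none higher, with a median of only -0.11. Psmb4 and Psma7, those with the smallest p, fell by 0.27 and 0.25. The count of lower subunits was 7 without OP9-GFP replicate 1 or 2 and 17 with arrays centred on their medians.

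Genes of energy metabolism changed in both directions, mostly by less than 2-fold. Glycolysis genes had 6 of 22 higher (27.3%) and 9 lower (40.9%), against 15.9% and 16.7% of all genes. In the brightest group of genes, with means above 9.09, the shares were 21.6% and 29.3%. The glucose transporter Slc2a3 rose from 11.20, 11.20 and 11.19 to 12.45, 12.38 and 12.45. The muscle enolase Eno3 rose by 1.20, Ldhb by 0.90 and Hk1, a hexokinase, by 0.51. The hexokinases Hk3 and Hk2 fell, by 1.04 and 0.43, as did the lactate exporter Slc16a3, by 1.08, and Pfkp by 0.77. In the tricarboxylic acid cycle 8 of 23 were lower (34.8%, or 12 genes with centred arrays) and 2 higher, led by Idh2, which fell from 10.52, 10.47 and 10.44 to 9.63, 9.58 and 9.76. Fatty acid oxidation genes had 5 of 23 lower (21.7%) and 2 higher (8.7%), with no 2-fold change. With arrays centred on their medians the counts of higher genes in these last lists were 0 and 1.

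Genes of oxidant defence, many under the factor NRF2, had 3 of 22 higher (13.6%) and 6 lower (27.3%). The shares were 15.9% and 16.7% over all genes, and 21.6% and 29.3% in the brightest group. The quinone reductase Nqo1 rose by 1.41, the cystine transporter Slc7a11 by 1.30 and Gsta4 by 1.21. Gpx3, a secreted glutathione peroxidase, fell from 10.50, 10.59 and 10.43 to 8.14, 8.31 and 8.32, and Hmox1, which degrades heme, by 0.55. With quantile normalization or averaged probe sets 5 were higher. Of 26 genes of the unfolded protein response 8 were lower (30.8%) and 2 higher (7.69%, or 4 genes with quantile normalization and 1 with centred arrays). Of the 2, Hyou1, a chaperone at 0.23, lost its call with probe sets averaged (limma adjusted p = 0.13) and without OP9-GFP replicate 2 or any 1 OP9-DL1 array (0.0512 to 0.175). Its sensors Atf6 and Ern1 fell by 0.94 and 0.59.

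Targets of TGF-beta and BMP signalling moved in both directions. Of 21, 8 rose and 7 fell. Ccn2, a matrix protein induced by TGF-beta, read 9.03, 9.03 and 8.96 against 11.10, 11.21 and 10.95, Tagln, a smooth muscle protein, 9.03, 9.12 and 8.93 against 10.61, 10.64 and 10.85, and Ltbp1, which tethers latent TGF-beta, rose by 1.36. Id3, Id2 and the repressor Skil fell, by 1.39, 0.81 and 0.92. Ccn1 rose by 1.14, and Tgfbi fell by 0.46. Wnt targets and regulators had 8 of 27 higher and 1 lower. The fall, of Wnt5a, had a limma adjusted p of 0.0485, and its call was lost with no intensity trend (0.0969) and without any 1 of OP9-GFP replicates 2 and 3, the 3 OP9-DL1 arrays and Compound E replicate 1 (0.0624 to 0.251). With centred arrays or averaged probe sets 2 were lower, and among brighter genes 0. Those that rose included Sfrp2, a secreted Wnt antagonist, at 1.73, Fzd2, a receptor, at 0.80, and Lef1, a nuclear effector, at 1.05.

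Guidance molecules first described in neurons changed in both directions too. Of 26 semaphorins, plexins and neuropilins 7 rose and 7 fell. The secreted class 3 members Sema3a, Sema3e and Sema3d rose, Sema3a from 4.09, 4.50 and 4.86 to 6.71, 6.63 and 6.67, and so did the membrane-anchored Sema7a, by 1.5. Nrp1 and Nrp2, receptors of several class 3 semaphorins, fell. Nrp1 went from 11.71, 11.64 and 11.60 to 10.60, 10.59 and 10.69, and Nrp2 from 9.59, 9.54 and 9.71 to 8.41, 8.51 and 8.60. Sema4a, an immune semaphorin, fell by 1.49 and Plxnb2 by 1.63. Regulators of actin had 10 of 38 higher (26.3%) and 14 lower (36.8%), against 21.6% and 29.3% of the brightest group of genes. Capg, an actin capping protein of macrophages, fell by 1.93, and the contractile genes Mylk, Myh10 and Tpm1 rose by 1.21, 1.37 and 0.64. Stromal markers rose and macrophage markers fell beside these lists.

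Gimap genes, GTPases of lymphocytes, and Schlafen genes, interferon-linked regulators of growth and translation, moved in opposite directions. All 4 of the list's 16 genes that rose were Gimap genes, and all 8 that fell were Schlafen genes. Gimap9 read 6.38, 6.38 and 6.44 against 8.94, 8.69 and 8.87, Gimap6 5.61, 5.70 and 5.58 against 7.52, 7.25 and 7.5, and Gimap1 rose by 1.64. Gimap8, whose OP9-GFP values were at background, had an adjusted p of 0.0454 by limma and was not called on the log2(value + 32) scale (0.0505), without OP9-GFP replicate 2 (0.209) or without OP9-DL1 replicate 2 (0.234), among other settings. Gimap3, Gimap4, Gimap5 and Gimap7 were not called. Slfn2 fell from 11.88, 11.91 and 11.76 to 10.34, 10.24 and 10.26, and Slfn5, from 5.81, 5.96 and 5.89, ended at background.

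**Figure D5:**
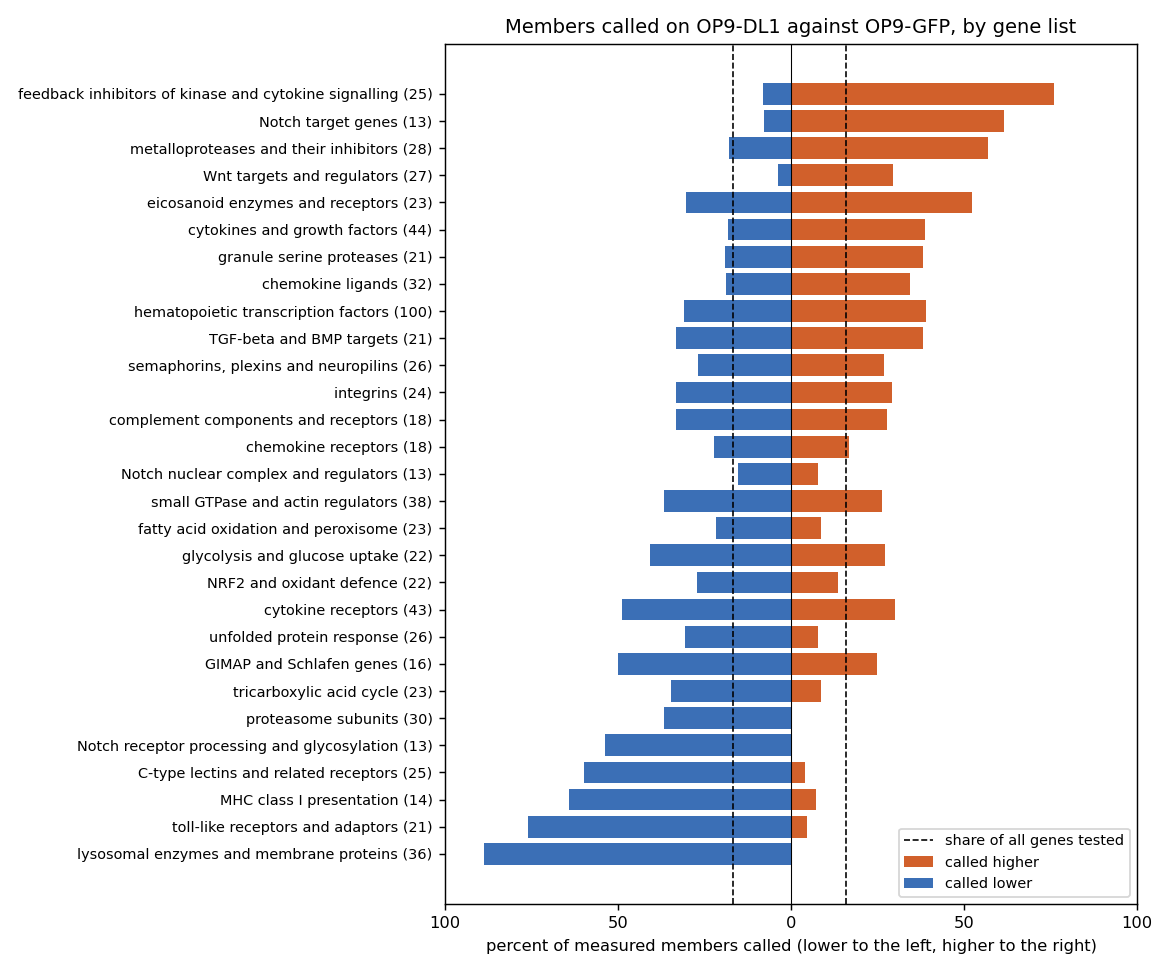
Each bar pair is a gene list of 12 or more measured members (number in brackets), with the percent called higher on OP9-DL1 to the right in orange and the percent called lower to the left in blue; dashed lines mark the shares of all genes tested, 15.9% and 16.7%. Feedback inhibitors (76% higher) stand at the top and lysosomal genes (88.9% lower) at the bottom, and many lists between them pass both lines.

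Changed genes lay side by side in 4 places of the genome, counted as runs of 4 or more measured neighbours that were all called one way and at least 2-fold changed. On chromosome 11 Slfn8, Slfn10-ps, Slfn2, Slfn1 and Slfn4 fell, by 1.14 to 2.47. On chromosome 19 Ms4a7, Ms4a4c, Ms4a4b and Ms4a6c fell, by 1.19 to 3.79, and on chromosome 6 the lectins Clec4a3, Clec4b1, Clec4a2, Clec4n, Clec4d and Clec4e, by 1.01 to 2.88. The run that rose, on chromosome 5, held Cxcl5, Ppbp, Pf4 and Cxcl3, by 1.06 to 2.65. Each run is a cluster of related genes, and probe sets may read more than 1 member.

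Genes were also grouped by the letters before the first digit of their symbol, which gave 185 families of 12 or more genes. The share higher was greatest in Snhg genes, hosts of small nucleolar RNAs, with 8 of 14 higher (57.1%) and none lower, though by 0.17 to 0.58 only. Septins, cytoskeletal GTPases, had 6 of 12 higher, with Septin1 at 2.41, and tetraspanins 9 of 19, with Tspan2 at 1.38 and Tspan6 at 1.28. Adamts (46.7%), Pde (40%) and Mmp (38.9%) genes followed. Among phosphodiesterases, which break down cyclic nucleotides, Pde10a rose by 2.34 and Pde8a and Pde8b fell by 1.75 and 1.45.

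Of the 6 families with the greatest share lower 5 are given here, led by Acot and Atg genes. Of 12 acyl-CoA thioesterases 6 fell and none rose, Acot1 from 6.34, 6.34 and 6.67 to 3.92, 3.88 and 4.19. Of 18 autophagy genes 9 fell and none rose, among them Atg9b (-0.93), Atg7 (-0.41), Atg3 (-0.42) and Atg5 (-0.30). Ms4a genes had 8 of 17 lower, but Ms4a4d (2.70) and Ms4a2 (1.09), the IgE receptor β chain, rose. Ifi genes had 6 of 13 lower, with Ifi204 at -2.34, and Sec genes, most of them of the secretory pathway, 12 of 26, with differences of -0.12 to -0.61.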

How the data were processed

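The deposited table holds log2 values made by the authors with GCRMA 2.4.1 and MAS5, per the submitters' processing notes, which give neither a role. Of 45101 probe sets 34945 had 1 gene symbol in the platform annotation, updated through Entrez IDs for 34741, and 18193 genes each had 1 probe set, the one of highest mean over the 9 arrays. Genes were tested with limma 3.58.1 in R 4.3.3 (lmFit and eBayes, intensity trend on), using all 9 arrays, with no further normalization, no filter and Benjamini-Hochberg adjustment over all genes. SD is between the 3 arrays of a group and SE is from the fit. The procedure was also run on simulated data with independent normal noise and far fewer changed genes than were called here. That run checks the code only and is no support for the calls.

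The members and lists were chosen with earlier results of these data known. Text names the 25 largest rises and falls among called genes with no overlap, at least 1 group mean above background and no clone-like symbol, every Notch list member, up to 4 called members per list and direction with the smallest p, runs of 4 or more neighbours, and the 6 symbol families with the highest share in each direction, of which 1 is not reported here. Genes outside this rule are said to have been chosen later, except markers and genes given as not called. Lists were described by counts and medians beside those over all genes, with no set test. Promoter windows of 300 bases were from RefSeq (GRCm38.p6) and covered 14452 genes. Same-numbered arrays did not deviate together (correlations of 0.00, -0.07 and -0.11). With so few arrays per group and such small deviations, these correlations cannot decide whether the numbers pair the arrays. What the replicate numbers stand for is not in the labels, so any pairing is unknown. Depth has no counterpart on an array.

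Alternatives were log2(value + 32), centred arrays (median set equal), quantile normalization, genes above background, genes above the median brightness, averaged probe sets, all probe sets, a fit on the 6 arrays alone, a fit with no intensity trend, the replicate number as a block, and each of 9 arrays left out in turn.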

Additional observations from a re-analysis of the deposited data

How the results depend on the processing

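Under each alternative that keeps 1 value per gene, the counts of genes higher and lower stayed within 1.5 times the values given, and the count at least 2-fold higher did so except on the log2(value + 32) scale, where it was 429, and among genes above the median brightness, where it was 404. Among those brighter genes none rose from or fell to background (0 and 0), by construction. Over every probe set in place of genes, more features are tested, and 5442 were higher, 5750 lower, 1317 at least 2-fold higher and 956 at least 2-fold lower, with 230 that rose from background and 94 that fell to it. With 1 array left out, 2486 to 3059 genes were higher, 2571 to 3209 lower, 736 to 753 at least 2-fold higher and 498 to 519 at least 2-fold lower, with 90 to 107 that rose from background and 33 to 45 that fell to it. With the replicate number as a block the counts were 2823 higher and 2932 lower, with 748 and 502 at least 2-fold. Centring arrays on their medians put the share of higher among called genes at 41.6% instead of 48.7%. The difference of Pdha1, a pyruvate dehydrogenase subunit, reversed from 0.13 to -0.05 with probe sets averaged (limma adjusted p = 0.387), and the cause was not tested. Of 263 genes the rule named 238 were called, and 21 lost the call under at least 1 alternative, 14 of them without 1 array. Dim genes limit the rest: folds against a group at background have no certain size.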
